A study of Mus musculus with 8 samples.

Results

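The 10 transcripts described here are copied from mitochondrial DNA, the small circular genome that mitochondria keep apart from the chromosomes of the nucleus. They were chosen as the non-control probes of the arrays whose identifier is an Ensembl transcript numbered from ENSMUST00000082387 to ENSMUST00000082423, the range of the mouse mitochondrial genome (mt-Nd, mt-Co, mt-Atp and mt-Cytb transcripts), and that at least 4 of the 8 arrays measured well above background. All 10 probes of that range were kept, 1 per transcript, of 23105 features tested in all. Each of the 10 was well above background on all 8 arrays, so the filter removed no probe of the range and none entered through 1 genotype alone. The scanner files and the RefSeq gene table used here do not pair these identifiers with single gene symbols, strands or positions. The transcripts are therefore called by their identifiers, and levels by strand or position were not analysed here.

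The RNA came from femoral growth plate cartilage of 8 littermate mice aged 12 days, 4 labelled Cre and 4 labelled CreTW, with 100 ng of total RNA hybridised to a 1-colour Agilent array per mouse. Growth plates are the layers of cartilage from which long bones lengthen. What the 2 genotype names stand for is not written out in the labels. As background known of this study, both groups carry a Cre recombinase driven by the Col2a1 promoter, which is active in cartilage cells, and the CreTW mice carry in addition a mutant Twinkle that Cre switches on. Other cells in the dissected tissue are therefore not necessarily recombined. The question, per the series title, concerns an inactive respiratory chain in cartilage and growth retardation.

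Twinkle is the helicase that unwinds mitochondrial DNA for replication. The mitochondrial genome is transcribed from both strands into long precursors that are cut into messenger, ribosomal and transfer RNAs, so that many of its genes share a start of transcription. Its proteins are a few subunits of respiratory complexes I, III and IV and of the ATP synthase, complex V, and each is built together with many subunits encoded in the nucleus. Complex II has no subunit from mitochondrial DNA. The RefSeq table of the mouse assembly GRCm38.p6 lists 13 protein-coding, 22 transfer RNA and 2 ribosomal RNA genes on the mitochondrial chromosome.

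The 10 transcripts were lower in CreTW cartilage, most of them by about 2-fold or somewhat more. The log2 difference, CreTW minus Cre, was negative for 10 of 10, against 51.6% of all features, with a median of -1.21, which leaves 43.2% of the Cre signal. Of the 10, 8 fell past adjusted p 0.05 by limma, with Benjamini-Hochberg adjustment over all 23105 features, by 2.01-fold to 2.65-fold, and 0 rose. Over all features, 27 fell, or 0.117%. At 2-fold or more, 9 of 10 were lower, against 0.519% of all features, and the median log2 difference of all features was -0.01. With the replicate number as a block, 0 of 10 passed by limma (lowest adjusted p = 0.0619), against 0.013% of all features that fell, and 10 of 10 were lower at an unadjusted p under 0.05, against 4.38%. In bulk tissue, fewer cells that hold much mitochondrial RNA and less of that RNA per cell cannot be told apart.

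Values are given as log2 processed signals from which the log2 75th percentile of all non-control probes on that array was subtracted. A value of 3 thus means a signal 8 times that percentile. Errors of a difference are standard errors of the limma fit with n = 4 arrays per genotype. Each probe has its own brightness, so values are compared between arrays and not between transcripts.

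The largest difference was that of ENSMUST00000082407. Its Cre values were 6.29, 6.33, 6.04 and 6.43 for replicates 1 to 4, and its CreTW values 4.85, 4.68, 5.16 and 4.77. The genotypes did not overlap, the gap between the lowest Cre and the highest CreTW array being 0.88. The transcript fell 2.65-fold (log2 -1.41 ± 0.13, 95% interval -1.70 to -1.11, adjusted p = 0.00403).

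ENSMUST00000082392 measured 3.92, 4.40, 4.41 and 4.42 on the Cre arrays and 3.01, 2.74, 3.19 and 2.71 on the CreTW arrays. Of the Cre arrays, 3 lay within 0.02 of each other and replicate 1 stood below them, still above every CreTW array. The fall was 2.60-fold (log2 -1.38 ± 0.16, interval -1.73 to -1.02, adjusted p = 0.00884), and without Cre replicate 1 the log2 difference was -1.50.

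ENSMUST00000082418 was at 5.36, 5.39, 5.24 and 5.24 in Cre cartilage and at 3.92, 3.88, 4.29 and 4.11 in CreTW cartilage. The gap between the genotypes, 0.95, was the widest of the 10. It fell 2.39-fold (log2 -1.26 ± 0.11, interval -1.51 to -1.01, adjusted p = 0.0035).

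For ENSMUST00000082396 the Cre arrays gave 7.34, 7.43, 7.53 and 7.41, a spread of 0.08 (SD, n = 4). The CreTW arrays gave 6.15, 6.03, 6.57 and 6.09, a spread of 0.24. Replicate 3 was thus the highest array of both genotypes. The fall was 2.32-fold (log2 -1.22 ± 0.13, interval -1.50 to -0.93, adjusted p = 0.00633).

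ENSMUST00000082421 had Cre values of 8.24, 8.36, 8.36 and 8.43 and CreTW values of 7.18, 6.91, 7.36 and 7.12. Its Cre spread of 0.08 (SD, n = 4) was again small beside the gap of 0.88 between the genotypes. The transcript fell 2.31-fold (log2 -1.21 ± 0.11, interval -1.45 to -0.96, adjusted p = 0.00351).

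ENSMUST00000082419 was at 2.74, 2.71, 2.37 and 2.95 in Cre and at 1.46, 1.40, 1.67 and 1.42 in CreTW. Here the Cre arrays varied more than the CreTW arrays (SD 0.24 against 0.12, n = 4 each), and the genotypes were 0.70 apart at their nearest arrays. Its fall was 2.31-fold (log2 -1.21 ± 0.13, interval -1.51 to -0.91, adjusted p = 0.00761).

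**Figure D1:**
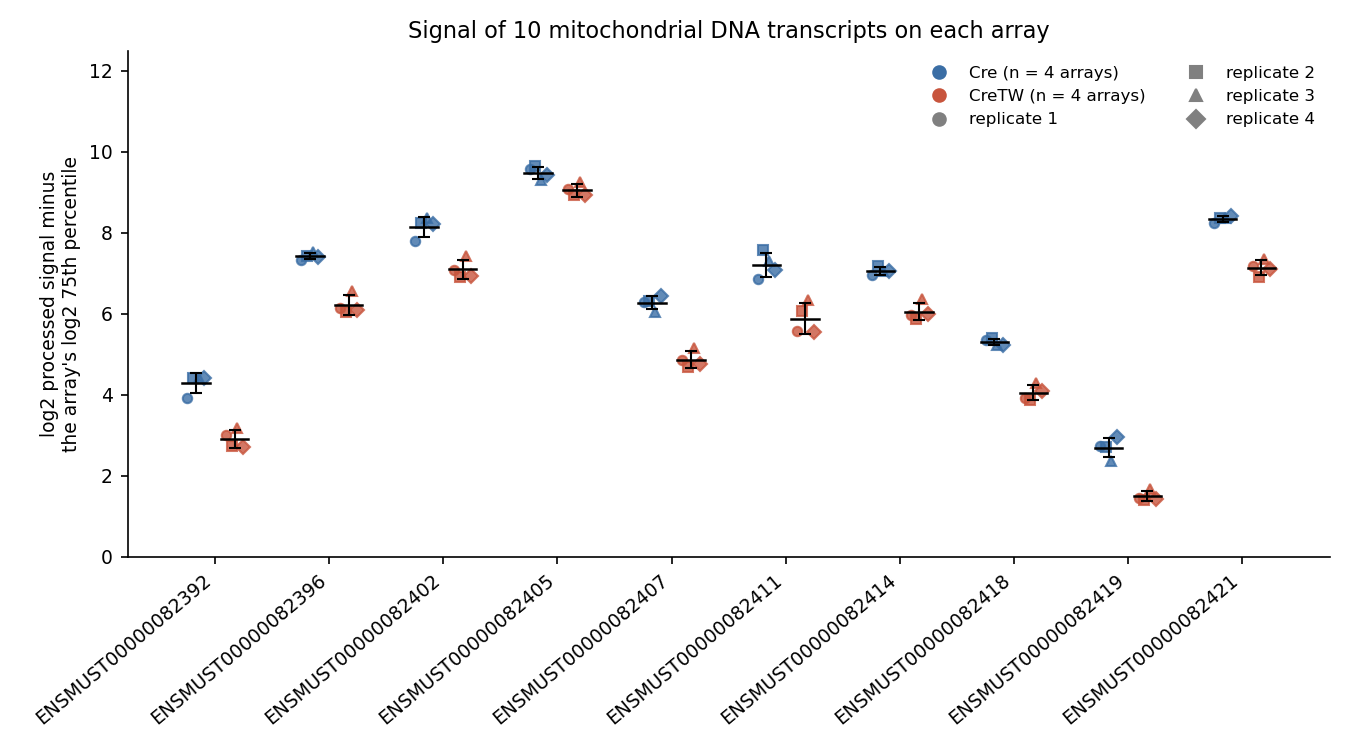
Log2 processed signal minus the array's log2 75th percentile (vertical axis) of each of the 10 transcripts on the 4 Cre (blue) and 4 CreTW (red) arrays, with marker shapes for replicate numbers and black lines for the mean ± SD. For each transcript all 4 CreTW points lie below all 4 Cre points, with the narrowest gap, 0.04, for ENSMUST00000082405; heights of different transcripts are those of different probes and are not comparable.

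The remaining 2 of the 8 called transcripts had smaller falls. ENSMUST00000082402 gave 7.80, 8.24, 8.36 and 8.22 on the Cre arrays and 7.09, 6.92, 7.44 and 6.94 on the CreTW arrays. Cre replicate 1 was the lowest of its group and CreTW replicate 3 the highest, 0.36 apart. The fall was 2.08-fold (log2 -1.06 ± 0.16, interval -1.42 to -0.69, adjusted p = 0.0369). Leaving out single arrays lost this call in 6 of 8 fits, those without Cre replicates 2, 3 and 4 and without CreTW replicates 1, 2 and 4 (highest adjusted p = 0.142), at log2 differences of -1.17 to -0.99 over the 8.

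ENSMUST00000082414 was at 6.96, 7.18, 7.05 and 7.05 in Cre and at 5.98, 5.87, 6.36 and 5.99 in CreTW. Its Cre arrays lay close together (SD 0.09, n = 4), and the genotypes were 0.60 apart. It fell 2.01-fold (log2 -1.01 ± 0.12, interval -1.28 to -0.74, adjusted p = 0.0101). Without CreTW replicate 4 the call was lost (adjusted p = 0.0575, log2 -0.99). The other 6 called transcripts were called without each array in turn.

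The test was missed by 2 transcripts. ENSMUST00000082411 had a difference as large as those of the called transcripts but the widest spread between arrays. Its Cre values were 6.86, 7.57, 7.30 and 7.09 (SD 0.31, n = 4) and its CreTW values 5.57, 6.07, 6.34 and 5.56 (SD 0.39). The genotypes did not overlap, and the difference was -1.32 ± 0.22 (interval -1.82 to -0.83, adjusted p = 0.0594). Without CreTW replicate 3 it passed (log2 -1.48, adjusted p = 0.0453).

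ENSMUST00000082405 had the smallest difference. It measured 9.57, 9.64, 9.30 and 9.43 in Cre and 9.09, 8.93, 9.27 and 8.94 in CreTW. The lowest Cre array, replicate 3, and the highest CreTW array, also replicate 3, were 0.04 apart. The difference was -0.43 ± 0.11, that is 1.35-fold lower (interval -0.69 to -0.17, adjusted p = 0.24). A 2-fold fall, a log2 difference of -1, lies outside that interval, whereas the intervals of the other 9 include it or lie below it. This probe read 112408 to 120624 scanner units on the Cre arrays and 83192 to 99382 on the CreTW arrays, and no spot of the 8 arrays was marked as saturated. It was the brightest of the 10 probes, with a mean Cre value of 9.49 against 8.35 for the next, that of ENSMUST00000082421. Whether so bright a probe reports a difference in full was not tested.

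**Figure D2:**
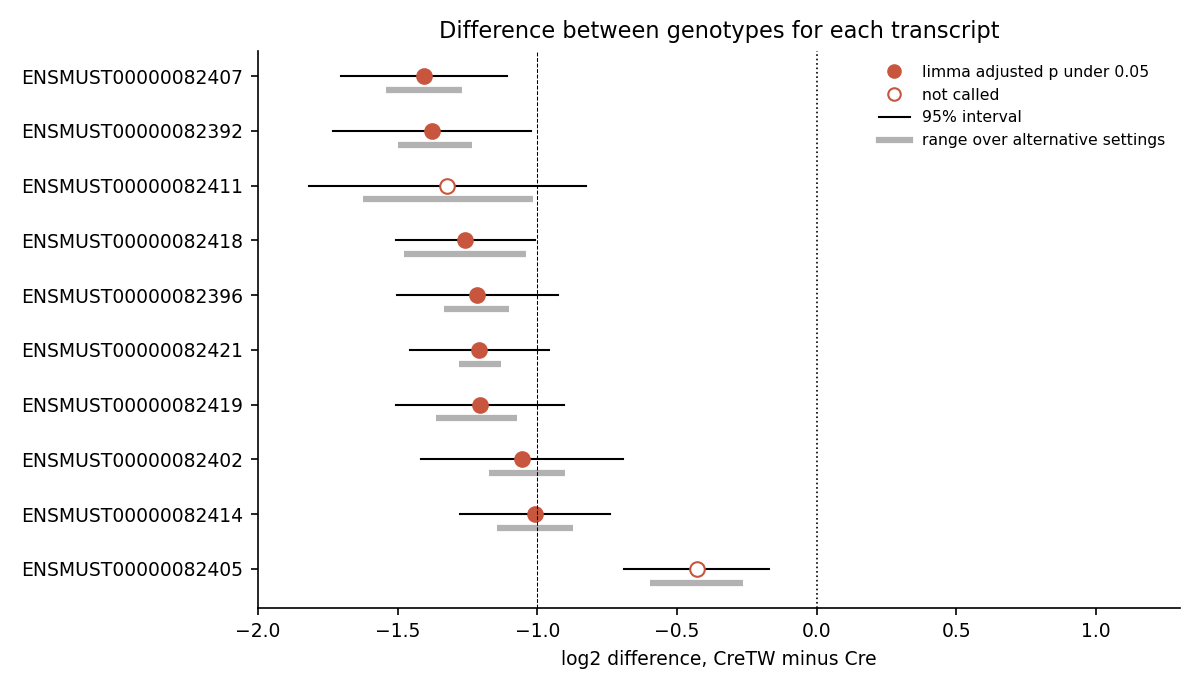
Log2 difference, CreTW minus Cre (horizontal axis), of each transcript with its 95% interval from limma (thin line) and the range over 25 alternative settings (grey bar below it); filled circles passed adjusted p 0.05. The dotted line marks no difference and the dashed line a 2-fold fall, and 9 circles lie at or below -1 while that of ENSMUST00000082405 is at -0.43.

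The unequal size of the differences was also described within arrays, as each transcript's value minus the mean of the other 9 on the same array. For ENSMUST00000082405 this relative value was 3.01 to 3.40 on the Cre arrays and 3.89 to 4.06 on the CreTW arrays, 0.80 higher in CreTW and without overlap. ENSMUST00000082414 was 0.16 higher by this measure (0.43 to 0.50 against 0.59 to 0.70) and ENSMUST00000082407 was 0.29 lower (-0.62 to -0.24 against -0.74 to -0.64), also without overlap. In the other 7 the genotypes overlapped, at differences of -0.25 to 0.10. These relative values depend on one another, since each transcript enters the mean of the others, and carry no test here.

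Within CreTW the transcripts tended to be high or low on the same arrays, and within Cre less so. CreTW replicate 3 was the highest CreTW array for 10 of 10 transcripts, and CreTW replicate 2 the lowest for 8. In Cre cartilage replicate 1 was the lowest for 6 of 10, replicate 3 for 3 and replicate 4 for 1. The highest was replicate 2 or 4 for 4 each and replicate 3 for 2. The mean of the 10, each centred on its own mean over the 8 arrays, was 0.46, 0.68, 0.55 and 0.62 on Cre replicates 1 to 4. On CreTW replicates 1 to 4 it was -0.62, -0.71, -0.29 and -0.69. All 4 CreTW arrays thus lay below all 4 Cre arrays for each of the 10, as they did for 2.81% of all features, and this also held for all 10 before any scaling between arrays.

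The genes with a symbol whose values varied most like the mean of the 10, once each genotype's mean was removed, were Cep170, Mrpl32, Ikzf3, Pxdc1 and Rasl12. Pearson's r over the 8 arrays was 0.99 for Cep170, a centrosomal protein, 0.97 for Mrpl32, a protein of the mitochondrial ribosome, 0.97 for Ikzf3, a lymphoid transcription factor, and 0.96 for both others. These are the highest of many correlations over few arrays of 1 slide and are given as a description. Symbols of the Gm number and Rik kinds were left out. The mean of the 10 was 0.29 above its genotype mean on CreTW replicate 3, against -0.13 to 0.10 on the other arrays. The r values thus rest largely on that array. None of the 5 passed the limma test between genotypes, Mrpl32 having a log2 difference of 0.08 ± 0.08 (adjusted p = 0.738).

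Nuclear genes of the same complexes were compared next. Of 77 measured nuclear subunits of complexes I to V, 0 passed the limma test in either direction, against 0.346% of all features, and 2 were higher and 2 lower at an unadjusted p under 0.05, which 10.7% of all features met in either direction. Their median log2 difference was 0.01, and the lowest, -0.39, lay above that of every mitochondrial DNA transcript. All CreTW arrays lay below all Cre arrays for 3 of the 77, or 3.90%, which is near the 2.81% of all features. The difference between the nuclear and the mitochondrial subunits was not tested as such.

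By complex, the median log2 difference was 0.02 for 36 subunits of complex I, which oxidises NADH, and here Ndufa13 was at 0.12 ± 0.08 and Ndufa2 at 0.12 ± 0.08. For 9 subunits of complex III, which reduces cytochrome c, the median was -0.07 and 7 were lower, down to -0.17 for Uqcrb, with Uqcrh at 0.03 ± 0.09 and Uqcrq at 0.03 ± 0.10. In complex IV, which passes electrons to oxygen, the median of 11 was 0.02, with Cox6a1 at -0.09 ± 0.09 and Cox8a at 0.05 ± 0.09. Complex V had a median of -0.01 over 17, with Atp5b, the catalytic beta subunit, at -0.02 ± 0.09 and Atp5e at 0.04 ± 0.10. The 4 subunits of complex II had a median of -0.05, with Sdhb at 0.01 ± 0.09 and Sdhd at -0.22 ± 0.08 (adjusted p = 0.407).

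Lists of genes that replicate, transcribe and process mitochondrial DNA and its RNA had small median differences, while single genes varied more. Among 16 genes of mitochondrial DNA replication the median was -0.0045, and the differences ran from -0.50 to 0.39. By limma 0 passed, against 0.346% of all features, and 0 were at an unadjusted p under 0.05, against 10.7%. Of the 16, 3 were not well above background on every array. Twnk, which encodes Twinkle, was at -2.14 ± 0.20 in Cre and -2.24 ± 0.43 in CreTW (SD, n = 4), a log2 difference of -0.10 ± 0.21 (adjusted p = 0.89). The Twnk probe was well above background on 4 Cre and 3 CreTW arrays. Whether that probe also detects transgene RNA was not analysed here, so the value does not check the labels. Ssbp1, which coats single-stranded mitochondrial DNA, was at 0.03 ± 0.09 and Mpv17, an inner membrane protein needed to keep that DNA, at -0.01 ± 0.08.

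Among 10 genes of mitochondrial transcription the median was -0.03, with 0 at an unadjusted p under 0.05, against 10.7% of all features. Polrmt, the mitochondrial RNA polymerase, was at -0.05 ± 0.08 (interval -0.23 to 0.13) and Tfam, which packages the genome and starts transcription, at -0.07 ± 0.10 (interval -0.29 to 0.15). The 22 measured genes of mitochondrial RNA processing and stability had a median of -0.01, also with 0 at that p. Slirp, which stabilises mitochondrial messenger RNA together with Lrpprc, was at -0.08 ± 0.12 and Hsd17b10, a subunit of mitochondrial RNase P, at 0.06 ± 0.10.

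The 26 genes chosen to track mitochondrial content, nuclear genes of import, carriers and matrix enzymes, had a median of -0.05 with 0 passing by limma. Over all features 0.346% passed in either direction. At an unadjusted p under 0.05, which 10.7% of all features met in either direction, 2 were higher and 1 lower. Slc25a4, an ADP/ATP carrier, was at 0.19 ± 0.08 (adjusted p = 0.434) and Mdh2, malate dehydrogenase of the matrix, at -0.06 ± 0.10. Over all 9 lists, 150 measured genes, the differences ran from -0.50 to 0.39, and 0 genes reached a 2-fold fall.

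**Figure D3:**
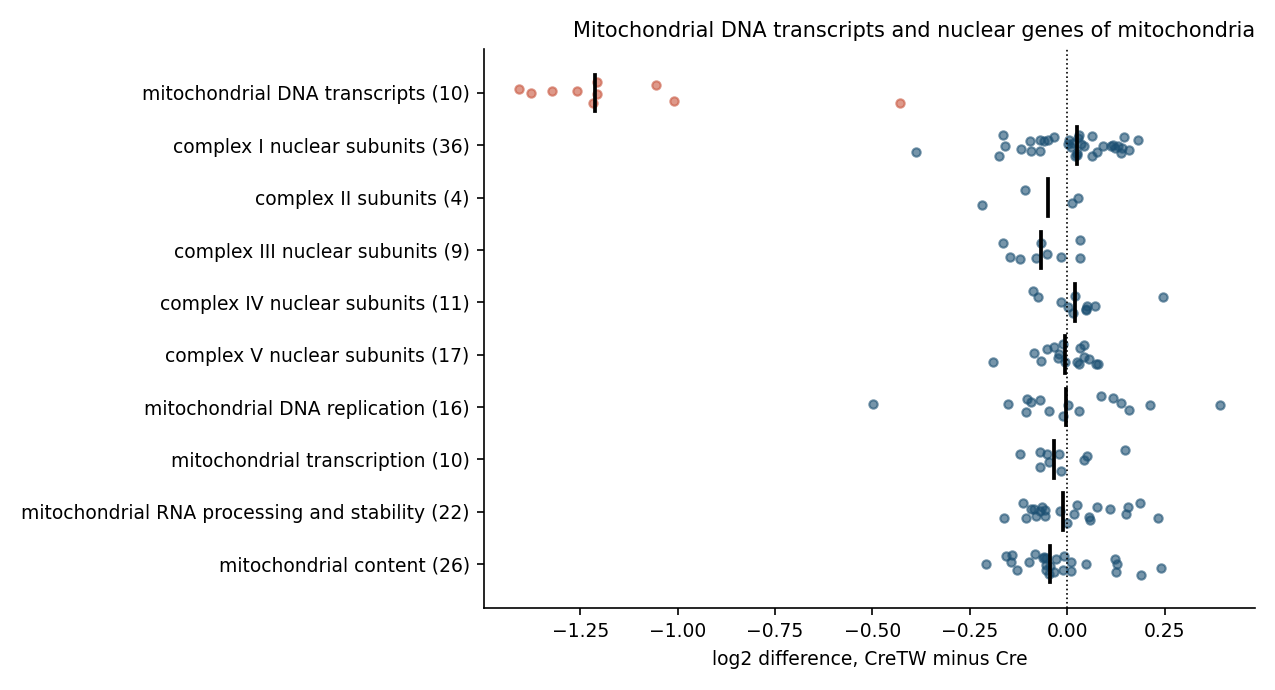
Log2 difference, CreTW minus Cre (horizontal axis), of the 10 mitochondrial DNA transcripts (red points) and of the nuclear genes of 9 lists (blue points; the number of measured genes is in brackets), with a black bar at each median and random vertical offsets. The red points have a median of -1.21 and the blue lists medians between -0.07 and 0.02.

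Cartilage markers were well above background on all 8 arrays. Of 10 chondrocyte markers 0 passed by limma (0 at an unadjusted p under 0.05, median log2 difference -0.14). Over all features 0.346% passed and 10.7% met that unadjusted p, in either direction. Of the 10, 9 were lower, down to -0.35, against 51.6% of all features that were lower. The 2 brightest, Col2a1, the main cartilage collagen, and Acan, the main proteoglycan, were at -0.05 ± 0.13 and 0.01 ± 0.14. Of 5 hypertrophic markers 0 passed by limma (0 at an unadjusted p under 0.05, median -0.19), with Col10a1 at 0.20 ± 0.16 and Spp1 at 0.07 ± 0.29. The other 3 were negative, Ihh at -0.86 ± 0.41, Ibsp at -0.62 ± 0.44 and Mmp13 at -0.19 ± 0.35, and are named after their values were seen.

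Lists of markers of other cells were compared on the same arrays, and 1 gene of them passed by limma. Over all features 0.346% passed in either direction. All 15 skeletal muscle markers were higher in CreTW (median log2 difference 3.96), 12 of them at an unadjusted p under 0.05 against 5.93% of all features that were higher at that p, and 1, Cox6a2, the muscle form of a complex IV subunit, passed (log2 4.45 ± 0.63, adjusted p = 0.0271), a call kept in 10 alternatives and lost in 14. The brightest muscle probes, of the fast fibre troponins Tnni2 and Tnnt3, were at 0.31 ± 0.44 and 1.46 ± 0.66. The summed level of the 15, in multiples of the array's 75th percentile, was 35.3 to 90.1 on the Cre arrays and 46.5 to 542 on the CreTW arrays. That sum weighs the brightest probes most, and Tnni2 alone was at 5.99 on Cre replicate 2, where the mean centred value of the 15 was lowest. Of the 15, 7 were not well above background on every array. The mean centred value of the 15 was -1.97, -2.81, 0.22 and -2.06 on Cre replicates 1 to 4 and -1.04, 3.26, 2.60 and 1.79 on CreTW replicates 1 to 4. By this mean CreTW replicate 1 lay inside the Cre range, whose upper end is Cre replicate 3 alone. Of the 15 markers on CreTW replicate 1, 1 (Cox6a2, at 0.92) was above all 4 Cre arrays, and 10 were above the other 3 when Cre replicate 3 was left out. On CreTW replicate 1 the mean centred value of the 10 mitochondrial transcripts was -0.62, between those of the other CreTW arrays. With the muscle score as a covariate the 10 differences were -1.62 to -0.30 with a median of -1.22. In that fit 0 of 10 passed by limma (lowest adjusted p = 0.123), 9 were lower at an unadjusted p under 0.05 against 1.44% of all features, and 0 of all 23105 features fell.

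All 9 markers of perichondrium and fibroblasts were higher in CreTW (median 0.33, 0 passing by limma), while 51.6% of all features were lower. Of the 9, 3 were at an unadjusted p under 0.05, against 5.93% of all features that were higher at that p. Col3a1 was at 0.39 ± 0.14 and Dcn at 0.35 ± 0.13. The largest difference, named after its value was seen, was that of Dpt (1.83 ± 0.48, adjusted p = 0.236 by limma). The summed level of the 9 was 327 to 448 on the Cre arrays and 463 to 561 on the CreTW arrays, without overlap, as were 6.70% of all features taken singly in either direction. With their score as a covariate the 10 differences were -1.49 to -0.38, and 0 of them and 0 of all features fell by limma. At an unadjusted p under 0.05, 9 of the 10 were lower, against 1.38% of all features. All 7 measured osteoclast markers were lower, as were 51.6% of all features (median -0.85, 0 passing by limma, 0 at an unadjusted p under 0.05). That unadjusted p was met by 10.7% of all features in either direction. Acp5 was at -0.81 ± 0.47 and Ctsk at -0.62 ± 0.41. The summed levels of the 7, 417 to 1170 in Cre and 274 to 1017 in CreTW, overlapped. With the osteoclast score as a covariate 6 of the 10 passed, against 0.0822% of all features that fell, at differences of -1.35 to -0.34. The 4 measured erythroid markers were lower, as were 51.6% of all features (median -0.63, 0 passing by limma). Of the 4, 1 was at an unadjusted p under 0.05, at which 1108 of 23105 features were lower. Hba-a1 was at -0.62 ± 0.29 and Hbb-bt at -0.64 ± 0.28, and the summed levels of the 4 were 309 to 530 in Cre and 184 to 443 in CreTW.

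The remaining lists of other cells had 0 members passing by limma. Osteoblast markers had a median of -0.26, and 7 of 7 were lower, against 51.6% of all features. Of the 7, 1 was at an unadjusted p under 0.05, at which 1108 of 23105 features were lower. Col1a1 was at -0.05 ± 0.12 and Alpl at -0.15 ± 0.13. Marrow leukocyte markers had a median of -0.22 over 10 and endothelial markers one of -0.13 over 7, each with 0 at an unadjusted p under 0.05. That p was met by 10.7% of all features in either direction. S100a9 was at -0.23 ± 1.03, S100a8 at -0.22 ± 0.95, Egfl7 at -0.13 ± 0.13 and Emcn at -0.27 ± 0.21. Of 5 adipocyte markers 2 were measured, Cidea at 0.36 ± 0.27 and Adipoq at -1.90 ± 0.83, the latter at an unadjusted p under 0.05 (adjusted p = 0.465). Adipoq was well above background on 3 Cre arrays and 1 CreTW array.

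**Figure D4:**
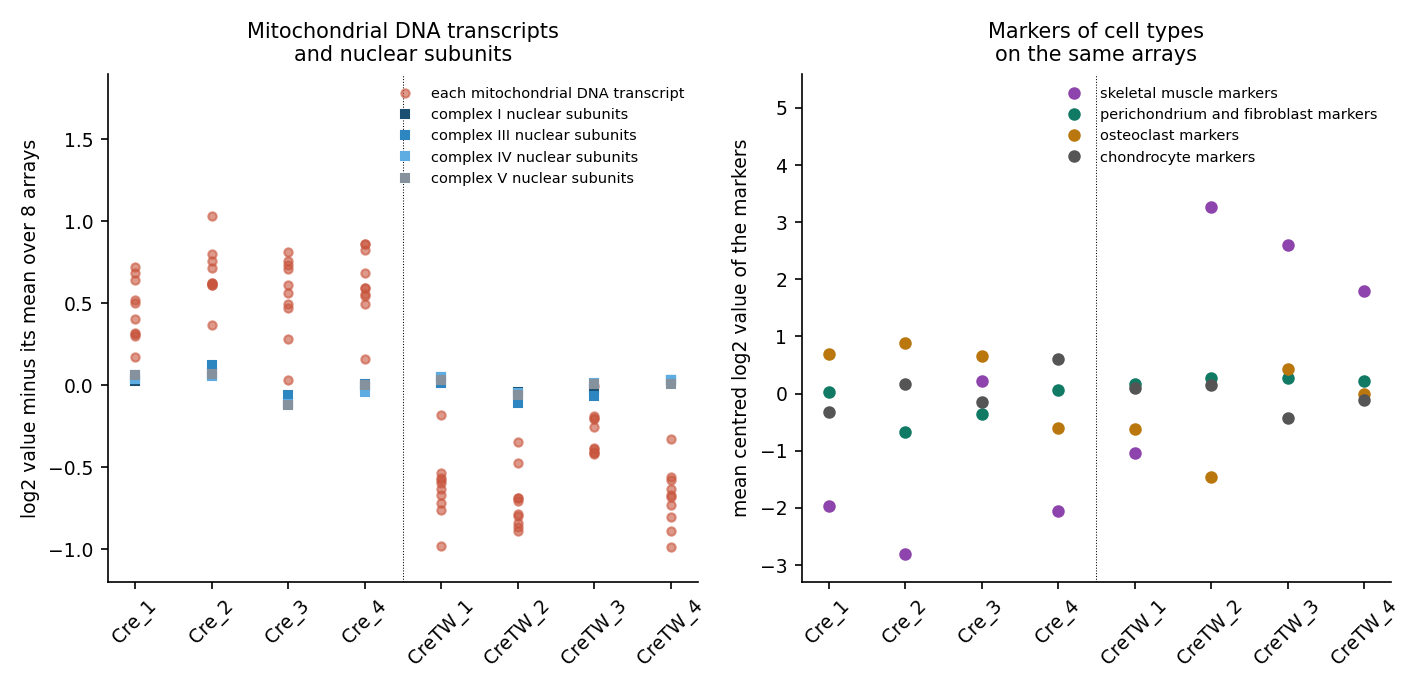
Values by array. Left, the 10 mitochondrial DNA transcripts (red circles) and the mean of the nuclear subunits of complexes I, III, IV and V (blue and grey squares), as log2 values minus their mean over the 8 arrays; right, mean centred log2 values of 4 marker lists on the same arrays. The red circles lie above 0 on the 4 Cre arrays and below 0 on the 4 CreTW arrays, the squares stay between -0.12 and 0.12, and the muscle markers are highest on CreTW replicates 2, 3 and 4.

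The arrays lay in 2 rows of 1 slide, as numbered in the names of the scanner files, each with 2 arrays of either genotype. Within row 1 the median log2 difference of the 10 transcripts was -1.29 (range -1.54 to -0.60), and within row 2 it was -1.13 (range -1.47 to -0.26), so the direction held within each row for all 10. With 2 arrays per genotype, 0 features passed by limma in either row, while 10 of 10 transcripts in row 1 and 9 of 10 in row 2 were lower at an unadjusted p under 0.05, against 7.71% and 2.49% of all features. The part that slide position has in the result was not tested beyond these fits. The perichondrium and fibroblast score was -0.67 to 0.07 on the Cre arrays and 0.17 to 0.28 on the CreTW arrays, without overlap. On CreTW replicates 2, 3 and 4 the muscle score was above that of every Cre array. The fits with these scores therefore cannot fully tell the other cells' markers from genotype, and the part of those markers was not tested. With no filter on dim probes 3 of the 10 passed, against 0.0241% of all features that fell. The share of the 56605 non-control probes measured well above background was 45.4% to 57.9% over the arrays.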

How the data were processed

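Per the file headers, intensity values were extracted by the authors with version 11.5.1.1 of Agilent's software, and probes lie on the mm9 build. The processed intensity is a spot's signal after background subtraction. The authors' deposited log2 value table differed from the log2 processed intensity by 1 constant on each array (r = 1), near the log2 of the 75th percentile (offsets -0.0056 to -0.0030), and was used as an alternative. Its genes were not centred (column medians -3.03 to -2.93).

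From the files, non-control spots of a probe were averaged without outlier-flagged spots, taken to log2 and reduced by the array's log2 75th percentile over 56605 probes. A probe was kept if at least 4 arrays had it well above background, and the brightest probe of a gene was used. Of these probes 32994 matched 1 symbol through RefSeq accessions (GRCm38.p6, for names alone) and 23611 none. All 23105 features were fitted with limma 3.58.1 (lmFit, eBayes; 6 residual and 2.52 prior degrees of freedom) in R 4.3.3 at adjusted p 0.05. The fit was tested on simulated data with independent normal noise for each feature. Those data hold no variation shared between features, slide rows or other cells, so the test does not bear on these. Alternatives changed scaling, background correction (normexp, offset 50, on median signals), filter, probe rule, blocks, covariates, variance model, weights and arrays.

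The members, 19 gene lists and tests were chosen with earlier results of these data known. The named genes are every member, Twnk, each list's 2 brightest members and those that passed, and the 5 most alike. Uqcrb, Ihh, Ibsp, Mmp13 and Dpt are named in addition, after their values were seen. The osteoclast and perichondrium covariates and unscaled values were added after seeing the data. Deviations of same-numbered arrays from their genotype means had r of -0.012, -0.10, 0.31 and -0.030 over all features, for replicates 1 to 4, and 0.14, 0.86, 0.64 and 0.17 over the 10 transcripts. The labels state no shared litter, day or batch per number, and the main fit has no block. Sequences of these transcripts were not used here.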

Additional observations from a re-analysis of the deposited data

Results flagged for a closer look

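In Cre cartilage the value of ENSMUST00000082392 on replicate 1, 3.92, stood apart from the other 3 Cre arrays (4.40 to 4.42), the gap being 0.96 of the group's range, above Dixon's 95% critical value for 4 samples. It was the 1 group flagged of 20 checked, and chance flags about 1 in 20. Without that array the log2 difference was -1.50 (adjusted p = 0.0123).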

How the results depend on the processing

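Over 25 alternatives all 250 log2 differences of the 10 transcripts were negative, and their median was -1.31 to -1.13. In the main fit 8 of 10 passed, and 6 to 9 passed in 19 alternatives. By limma 3 of 10 passed with no filter on dim probes, where 45616 features were tested and 27 changed. Adjusted for the muscle score, 0 of 10 passed and 4 features changed, for the perichondrium and fibroblast score 0 and 1, and within slide rows 1 and 2 alone 0 and 0. At an unadjusted p under 0.05 were 9, 9, 10 and 9 of the 10. With the replicate block 0 of 10 passed (adjusted p 0.0619 to 0.422, 10 of 10 at an unadjusted p under 0.05) and 12 features changed against 80. Whether the numbers pair the arrays is unsettled. Over all features 2 of 8 arrays correlated best with their own number, each among the 4 arrays of the other genotype. By number, 1 of 4 pairs had an r over 0.1 over all features and all 4 did over the 10 transcripts. Differently numbered arrays were not compared over the 10 transcripts, so those r do not decide it. Features changed also numbered 53 with the slide row as a block, 45 with the osteoclast score and 127 with array weights. Without single arrays 6 to 9 of 10 passed and 42 to 75 features changed. The count over the 9 mitochondrial lists was 0 in every alternative. Causes of these changes were not tested. Having no filter adds features to the adjustment, and blocks, covariates and single rows leave fewer residual degrees of freedom. At 5 of these, 7 of 10 passed with the slide row as a block and 6 with the osteoclast score. Also at 5, 0 passed with the muscle score and 0 with the perichondrium and fibroblast score. The fits at 5 also differ in how far the added term runs with genotype, so these counts single out no cause. The muscle and the perichondrium scores ran largely with genotype, and their parts cannot be fully told apart from it. The number of arrays limits the precision.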

Other observations

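Outside the number range that defined the 10 transcripts, the feature ENSMUST00000084013 had a like difference (it was picked with its value known). It measured 7.05, 6.79, 6.60 and 6.84 on Cre replicates 1 to 4 and 5.44, 5.22, 5.75 and 5.46 on CreTW replicates 1 to 4. It fell 2.55-fold (log2 -1.35 ± 0.14, adjusted p = 0.00571 by limma), without overlap between the genotypes, and CreTW replicate 3 was again the highest CreTW array. The files used here do not pair it with a gene symbol. The 10 transcripts, of 23105 features tested, held 8 of the 27 features that fell (29.6%). Of the 27, 13 others, ENSMUST00000084013 included, also had no symbol here. Over all features 14127 of 23105 had a symbol. Which genome the 13 are copied from was not analysed here.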
